A study of Mus musculus with 9 samples.

Results

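The genes described here are 10 members of the machinery that cuts proteins at and around the cell surface: the sheddases Adam8, Adam10 and Adam17, the matrix metalloproteases Mmp9, Mmp12, Mmp13, Mmp14 and Mmp19, and the metalloprotease inhibitors Timp1 and Timp2. They were chosen by name, with earlier results of these data known but with no measured value in the rule, and all 10 are among the 13593 genes of the deposited count table. RNA-seq libraries were made from mouse bone marrow-derived macrophages, cells grown out of marrow from wild type C57BL/6 mice of 6 weeks over 7 days in medium with 15% supernatant of L929 fibroblasts, a source of macrophage colony-stimulating factor. All groups share this origin and differ only in the protein added for 4 h at 4 nM, which was bovine serum albumin (BSA, the control protein), the chemokine CX3CL1 or the chemokine CCL26. Each group has 3 libraries, and CX3CR1 is, per the title of the series, the receptor that both chemokines bind. Nothing in the labels states that the libraries of a group are from different mice or cultures, or whether mice were pooled, so each p below measures a spread between libraries that may be technical.

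ADAM10 and ADAM17 are membrane-anchored metalloproteases that release the outer part of surface proteins. ADAM17 is the main releasing enzyme of tumour necrosis factor, ADAM10 makes the first cut that activates Notch receptors, and both can free CX3CL1, one of the chemokines applied here, from its membrane stalk. ADAM8 is a related protease of myeloid cells. Among the matrix metalloproteases, MMP12 is the macrophage elastase, MMP9 a gelatinase, MMP13 a collagenase, MMP14 a membrane-bound collagenase and MMP19 a secreted protease. TIMP1 and TIMP2 bind the active site of many matrix metalloproteases and block it. TIMP2 also serves as the adaptor through which MMP14 activates the gelatinase MMP2. Most of these enzymes are made as inactive precursors, so a transcript level is not a measure of activity.

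Depth ran from 16923982 to 23198324 counts per library. CX3CL1 replicate 1 stood apart: it lacked any count for 1193 genes, where the other libraries lacked one for 80 to 170. Of the tested genes, 67.8% lay more than 0.5 log2 units away in it from the mean of CX3CL1 replicates 2 and 3. Every comparison is therefore given for all 9 libraries and for the 8 without this one. The 12 macrophage markers were all in the table, with a summed level of 32876 to 33501 CPM (counts per 1000000 counts of the scaled library) in the BSA libraries, of 26857 to 27258 with CCL26 and of 30973 to 48089 with CX3CL1, where the highest is replicate 1. Most of these sums was Lyz2, with a mean of 23489 CPM with BSA and 18342 with CCL26. Markers of neutrophils and their precursors (12 of 14 in the table) summed to 96.3 to 101 CPM with BSA, 109 to 110 with CCL26 and 102 to 202 with CX3CL1, again with replicate 1 highest. Fibroblast markers (5 of 13 in the table) summed to at most 6.37 CPM in any BSA library.

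Because the libraries are bulk RNA, fewer cells of a type and less RNA per cell cannot be told apart in any value below. CPM uses library sizes scaled by TMM, a method that aligns libraries on the bulk of their genes. Levels of different genes are compared only per kilobase of exon (RPKM). The length is that of all annotated exons of a gene merged, such as 7237 bases for Mmp12 and 2673 for Mmp13. It can exceed the length of the transcript made, which lowers the RPKM. The order of genes below depends on this choice, and other lengths were not tested.

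In the BSA libraries the 3 sheddases were the most abundant members per length of merged exons, and the inhibitor Timp1 was nearly absent. Adam8 (ENSMUSG00000025473, chromosome 7, 139978932 to 139992562, minus strand, GRCm38) stood first at 192 ± 0.329 RPKM (SD, n = 3), higher than 98.3% of the genes in the table. Adam17 (ENSMUSG00000052593, chromosome 12, 21323509 to 21373632, minus strand) followed at 77.2 ± 1.76 RPKM (SD, n = 3). Adam10 (ENSMUSG00000054693, chromosome 9, 70678997 to 70780229, plus strand) was next at 53.5 ± 1.84 RPKM (SD, n = 3). No library of one sheddase overlapped a library of the next in this order.

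The inhibitor Timp2 (ENSMUSG00000017466, chromosome 11, 118301069 to 118355740, minus strand) came after the sheddases at 44.6 ± 1.87 RPKM (SD, n = 3). Mmp12 (ENSMUSG00000049723, chromosome 9, 7344381 to 7369499, plus strand) had 31.5 ± 1.69 RPKM (SD, n = 3) and Mmp14 (ENSMUSG00000000957, chromosome 14, 54431612 to 54445364, plus strand) 30.0 ± 1.34. These 2 neighbours in the order overlapped and their order is not settled by these libraries.

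A gap of 3.49-fold separated Mmp14 from the lower matrix metalloproteases. Mmp19 (ENSMUSG00000025355, chromosome 10, 128790910 to 128800824, plus strand) had 8.60 ± 0.987 RPKM (SD, n = 3) and Mmp13 (ENSMUSG00000050578, chromosome 9, 7272514 to 7283331, plus strand) 7.55 ± 0.793, with overlapping libraries. Mmp9 (ENSMUSG00000017737, chromosome 2, 164940780 to 164955850, plus strand) had 6.31 RPKM (range 5.74 to 6.68, n = 3), a level above that of 58.8% of the genes. Timp1 (ENSMUSG00000001131, chromosome X, 20870166 to 20874735, plus strand) was last at 0.153 ± 0.145 RPKM (SD, n = 3), so Timp2 made up nearly all of the TIMP transcripts among the members.

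**Figure D1:**
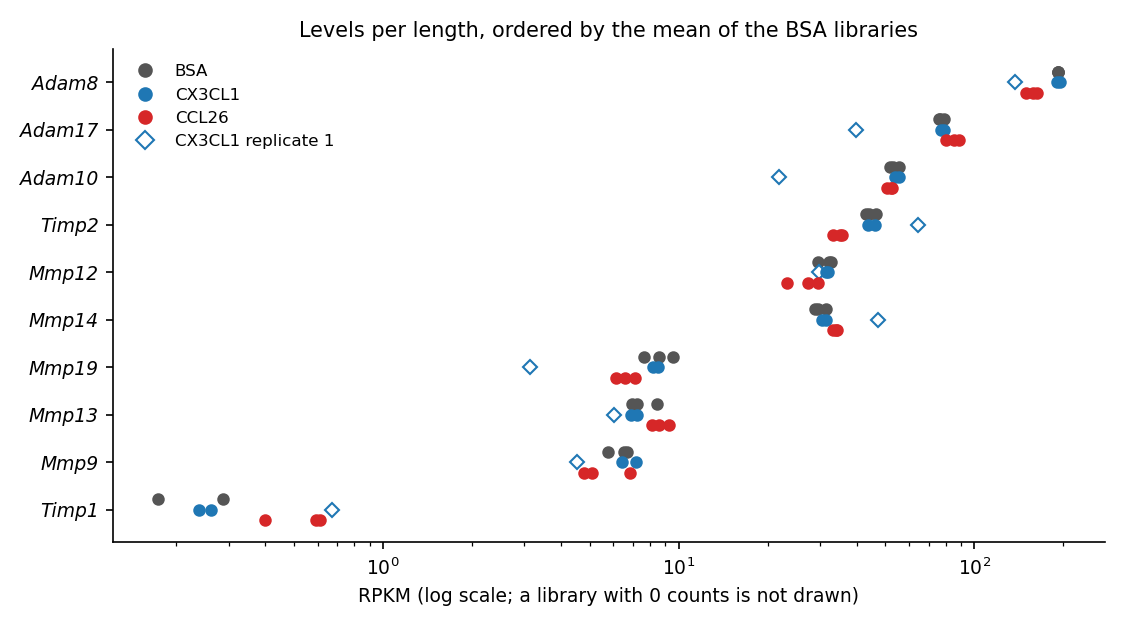
Level of each gene per kilobase of exon (RPKM, log axis) in every library, ordered by the mean of the BSA libraries. Points are libraries, grey for BSA, blue for CX3CL1 and red for CCL26, and the open diamond is CX3CL1 replicate 1; the sheddases and Timp2 lie at the top, and Timp1 lies far below all others.

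Some members share sequence with a neighbouring gene, and the sources used here do not say if reads were counted by strand. Adam17 shares 311 exonic bases with Iah1 on the opposite strand, and Mmp19 shares 789 of its 3533 exonic bases with Tmem198b. Iah1 had a mean of 21.6 CPM with BSA and 22.8 with CCL26, a log2 fold change of 0.08 ± 0.107 (SE). Tmem198b had 2.77 CPM with BSA and 1.63 with CCL26, a log2 fold change of -0.76 ± 0.355 (SE, adjusted p = 0.149, edgeR, 8 libraries). Mmp19 was also lower with CCL26, and the part of Tmem198b reads in the count of Mmp19 was not tested. Timp1 lies within Syn1 on the opposite strand without sharing an exonic base, and Mmp12 shares 157 exonic bases with Mmp1b, which is not in the table.

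Promoters are shown for 4 of the members called with CCL26 in the fit of 8 libraries described below, and for Mmp13, which was not called. RefSeq (GRCm38.p6) gave the sequence around the start of 8 of the 10 members, the exceptions being Mmp9 and Mmp19, and 2 starts for Mmp12. The 250 bases before each start were searched on both strands for 5 short motifs. The AP-1 motif TGANTCA stood in 6.749% of the 32851 promoters of the table, the GC box GGGCGG in 32.742%, the TATA box TATAAA in 12.368%, the consensus of the interferon-stimulated response element in 2.977% and the NF-kB consensus in 7.251%; some windows hold more than 1 of them. The 150 bases just before the start are printed 5′ to 3′ in the direction of the gene for 2 members that were lower (Adam8 and the second start of Mmp12), for 2 that were higher (Adam17 and Mmp14) and for Mmp13, whose window held the most kinds of motif. Capitals mark a motif match, read on the other strand for the GC box of Adam8 and the interferon element of Mmp13.
Adam8, chr7:139992563-139992712, minus strand: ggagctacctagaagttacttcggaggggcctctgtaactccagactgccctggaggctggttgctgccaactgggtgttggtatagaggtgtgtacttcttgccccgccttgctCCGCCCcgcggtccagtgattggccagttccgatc
Mmp12, second start, chr9:7347224-7347373, plus strand: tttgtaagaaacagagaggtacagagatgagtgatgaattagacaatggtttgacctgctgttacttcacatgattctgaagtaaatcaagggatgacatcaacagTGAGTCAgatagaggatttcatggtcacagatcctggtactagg
Adam17, chr12:21373633-21373782, minus strand: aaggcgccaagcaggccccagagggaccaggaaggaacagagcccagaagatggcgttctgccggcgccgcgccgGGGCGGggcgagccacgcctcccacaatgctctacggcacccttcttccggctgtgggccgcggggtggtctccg
Mmp14, chr14:54431448-54431597, plus strand: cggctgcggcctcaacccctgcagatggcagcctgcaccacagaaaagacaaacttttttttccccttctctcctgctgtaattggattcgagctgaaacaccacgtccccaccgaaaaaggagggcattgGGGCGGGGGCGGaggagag
Mmp13, chr9:7272364-7272513, plus strand: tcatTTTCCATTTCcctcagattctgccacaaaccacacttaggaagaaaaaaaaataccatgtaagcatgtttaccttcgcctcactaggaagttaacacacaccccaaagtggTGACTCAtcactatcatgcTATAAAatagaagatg

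GC boxes were present for Adam8, Adam10, Adam17, Mmp14, Timp1 and Timp2, and none was found in the Mmp12 and Mmp13 windows. In Mmp13 an AP-1 motif lay 35 to 29 bases before the start and a TATA box 16 to 11 bases before it. The second start of Mmp12 had an AP-1 motif at 44 to 38 bases, and the first start had an NF-kB match at 129 to 120 bases. GC content of the 250 bases was 74.0% for Adam10, 70.4% for Adam17, 68.0% for Timp2 and 55.2% for Mmp14, against 40.4% for Mmp13 and 40.0% and 39.6% for the starts of Mmp12; the median over all promoters was 52.4%. The members that were higher with CCL26 and 2 of those that were lower (Adam8 and Timp2) all hold GC boxes. A match is a description of the letters and says nothing of binding.

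CCL26 against BSA asks what the chemokine did to these genes relative to the control protein. Without CX3CL1 replicate 1, Adam8, Timp2, Mmp12 and Mmp19 were lower with CCL26 and Adam17 and Mmp14 were higher, by 9.81% to 23.1%. That is 6 of 10 members past an adjusted p of 0.05 (edgeR quasi-likelihood test, Benjamini-Hochberg over 13245 genes), where 19% of all tested genes passed (1290 higher, 1227 lower). In the fit of all 9 libraries 0 of the 9 tested members passed and 1 had an unadjusted p under 0.05; there 0.434% of 12915 genes passed, and DESeq2 on all 9 libraries also called 0 members. The log2 fold changes were nearly the same in both fits, and the standard errors were wider with all 9. The median log2 fold change of the members was -0.11, against 0.01 over all genes tested, in the 8-library fit. In the plot of levels by library, the 3 CCL26 points lie outside the range of the BSA points for Adam8, Adam17, Mmp14, Mmp19, Timp1 and Timp2, which is 6 of 10 members, where 32.7% of all genes did so.

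**Figure D2:**
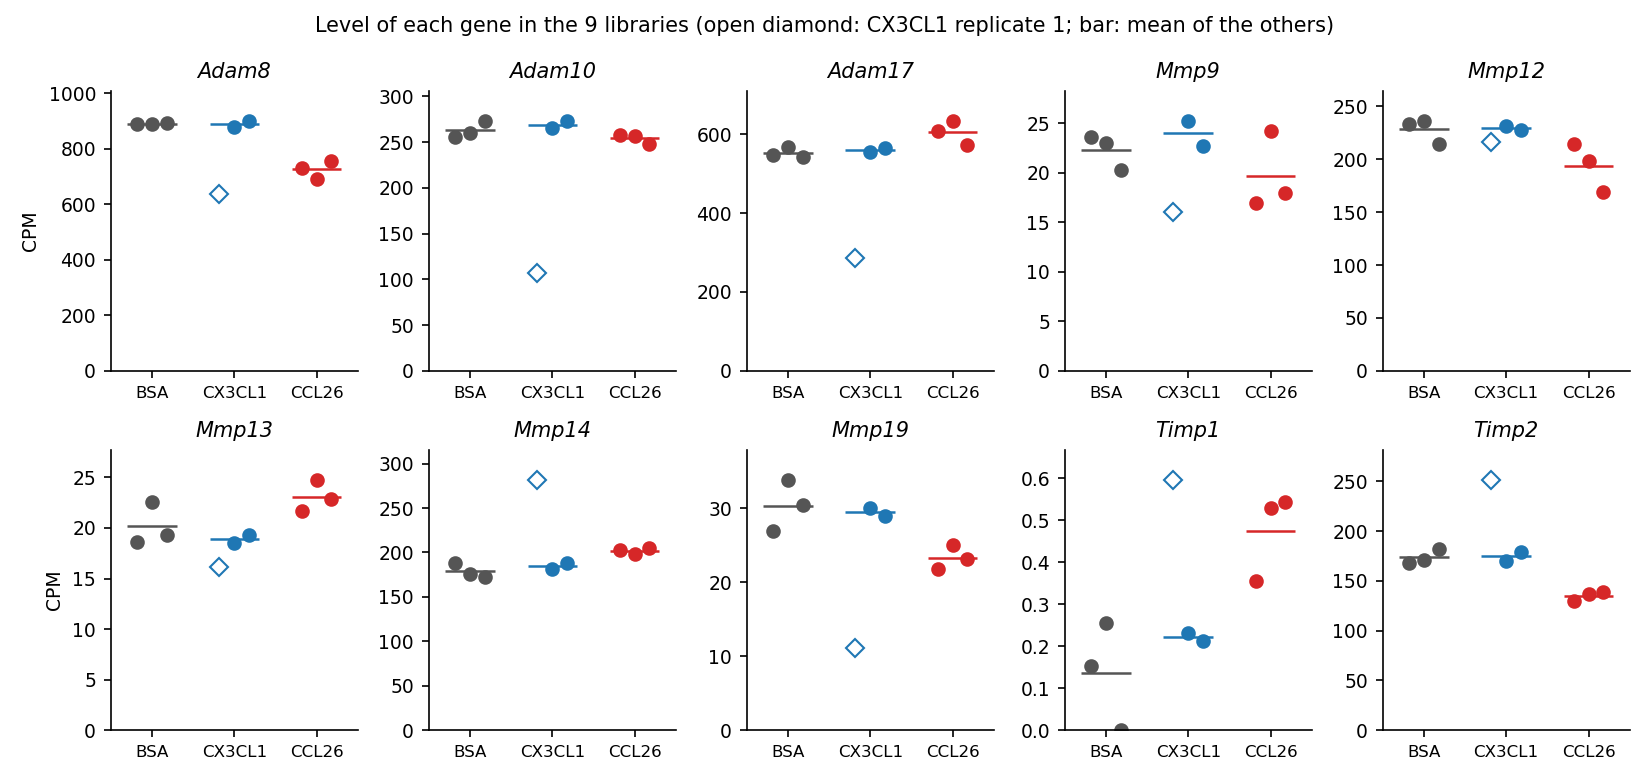
Level of each gene in CPM in the 9 libraries, by treatment, on axes that start at 0. Points are libraries, the horizontal bar is the group mean without CX3CL1 replicate 1, and the open diamond is that library; Adam8 and Timp2 show the CCL26 libraries well below the BSA libraries, and the diamond lies outside all other points for every gene except Mmp12.

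Of the sheddases, Adam8 fell, Adam17 rose by a smaller share and Adam10 did not pass. The level of Adam8 was 888.2, 888.9 and 891.2 CPM in BSA replicates 1 to 3 and 732.1, 692.5 and 754.4 CPM with CCL26. The highest CCL26 library thus lay below the lowest BSA library, by a distance larger than the SD of either group (1.52 CPM with BSA and 31.3 with CCL26). Without CX3CL1 replicate 1, Adam8 fell by 18.2%, a log2 fold change of -0.29 ± 0.0342 (SE, adjusted p = 6.85e-07, edgeR). With all 9 libraries the log2 fold change was again -0.29, with an SE of 0.139 and an adjusted p of 0.854. The call in the 8-library fit held in 8 of 8 fits that left out a further library, with an adjusted p of at most 3.21e-05.

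Adam17, the tumour necrosis factor-releasing enzyme, had 547.4, 566.5 and 542.7 CPM with BSA and 608.2, 634.3 and 572.6 CPM with CCL26. All CCL26 libraries were above all BSA libraries, though the lowest of the former was close to the highest of the latter. In the 8-library fit Adam17 rose by 9.81% (log2 fold change 0.14 ± 0.0380, SE, adjusted p = 0.0129, edgeR). The call was lost on leaving out BSA replicate 1, BSA replicate 3 or CCL26 replicate 2, with an adjusted p of up to 0.0956. In the fit of all 9 libraries the unadjusted p of Adam17 was 0.576 (edgeR, not past the threshold after adjustment).

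Adam10 had 255.4, 260.0 and 272.9 CPM with BSA and 258.1, 256.8 and 248.0 CPM with CCL26. The groups overlapped, and the log2 fold change was -0.04 with a 95% interval of -0.13 to 0.04 in the 8-library fit (adjusted p = 0.552, edgeR). Adam8, Adam17 and Adam10 therefore took different signs or sizes in the same libraries, but the differences between their changes were not tested.

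Timp2 was the inhibitor with a measurable level, and it fell. It had 167.8, 171.2 and 181.8 CPM with BSA and 129.3, 137.1 and 138.7 CPM with CCL26. Every CCL26 library was below every BSA library. Timp2 fell by 22.0% in the 8-library fit, a log2 fold change of -0.36 ± 0.0508 (SE, adjusted p = 1.05e-05, edgeR), and kept its call in 8 of 8 fits without a further library. In the fit of all 9 libraries it was the member with an unadjusted p under 0.05, and its log2 fold change of -0.36 ± 0.155 (SE) had an adjusted p of 0.781 (edgeR).

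Timp1 rested on few reads, with 3, 5 and 0 counts in BSA replicates 1 to 3 and 8, 11 and 10 counts with CCL26. The 0 in BSA replicate 3 allows up to 3 counts, or 0.170 CPM, by counting error alone. The groups did not overlap, but the log2 fold change of 1.72 had an SE of 0.924 and a 95% interval of -0.18 to 3.63 (adjusted p = 0.219, edgeR, 8 libraries). In the fit of all 9 libraries Timp1 was below the filter on low counts and had no test. CX3CL1 libraries had 9, 4 and 5 counts.

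Of the matrix metalloproteases, Mmp14 rose while Mmp12 and Mmp19 fell. Mmp14, the membrane-bound collagenase, had 188.0, 175.9 and 172.8 CPM with BSA and 202.4, 198.2 and 204.5 CPM with CCL26, with no overlap. It rose by 13.0% in the 8-library fit (log2 fold change 0.18 ± 0.0471, SE, adjusted p = 0.00891, edgeR). The call ended without BSA replicate 2 or BSA replicate 3, at an adjusted p of up to 0.0655. With all 9 libraries the log2 fold change of Mmp14 was 0.17 ± 0.169 (SE, unadjusted p = 0.332, edgeR), not past the threshold after adjustment.

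Mmp12, the macrophage elastase, had 233.7, 236.5 and 214.0 CPM with BSA and 214.2, 197.9 and 168.6 CPM with CCL26. The groups met at their edges, since CCL26 replicate 1 was level with BSA replicate 3. Mmp12 fell by 14.9% in the 8-library fit (log2 fold change -0.23 ± 0.0616, SE, adjusted p = 0.00831, edgeR). This call was lost without BSA replicate 1 or BSA replicate 2 (adjusted p up to 0.0625). With all 9 libraries the log2 fold change of Mmp12 was -0.24 ± 0.119 (SE, adjusted p = 0.902, edgeR).

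Mmp19 had 26.88, 33.86 and 30.41 CPM with BSA and 21.74, 25.05 and 23.18 CPM with CCL26. The lowest BSA library was above the highest CCL26 library by a small margin. In the 8-library fit Mmp19 fell by 23.1% (log2 fold change -0.38 ± 0.103, SE, adjusted p = 0.00989, edgeR), the largest percentage among the called members. The call was lost without BSA replicate 2 or CCL26 replicate 1 (adjusted p up to 0.0916). Adding CX3CL1 replicate 1 back, the same log2 fold change of -0.38 had an SE of 0.321.

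The gelatinase Mmp9 and the collagenase Mmp13 did not pass in either fit. Mmp9 had 23.65, 23.05 and 20.33 CPM with BSA and 16.95, 24.24 and 18.02 CPM with CCL26, and CCL26 replicate 2 was above every BSA library. Its log2 fold change was -0.18 with a 95% interval of -0.43 to 0.08 (adjusted p = 0.376, edgeR, 8 libraries). Mmp13 had 18.62, 22.59 and 19.31 CPM with BSA and 21.70, 24.76 and 22.85 CPM with CCL26, again with overlap. Its log2 fold change was 0.20 with an interval of -0.03 to 0.43 (adjusted p = 0.239, edgeR, 8 libraries). These intervals include changes as large as those called for other members.

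**Figure D3:**
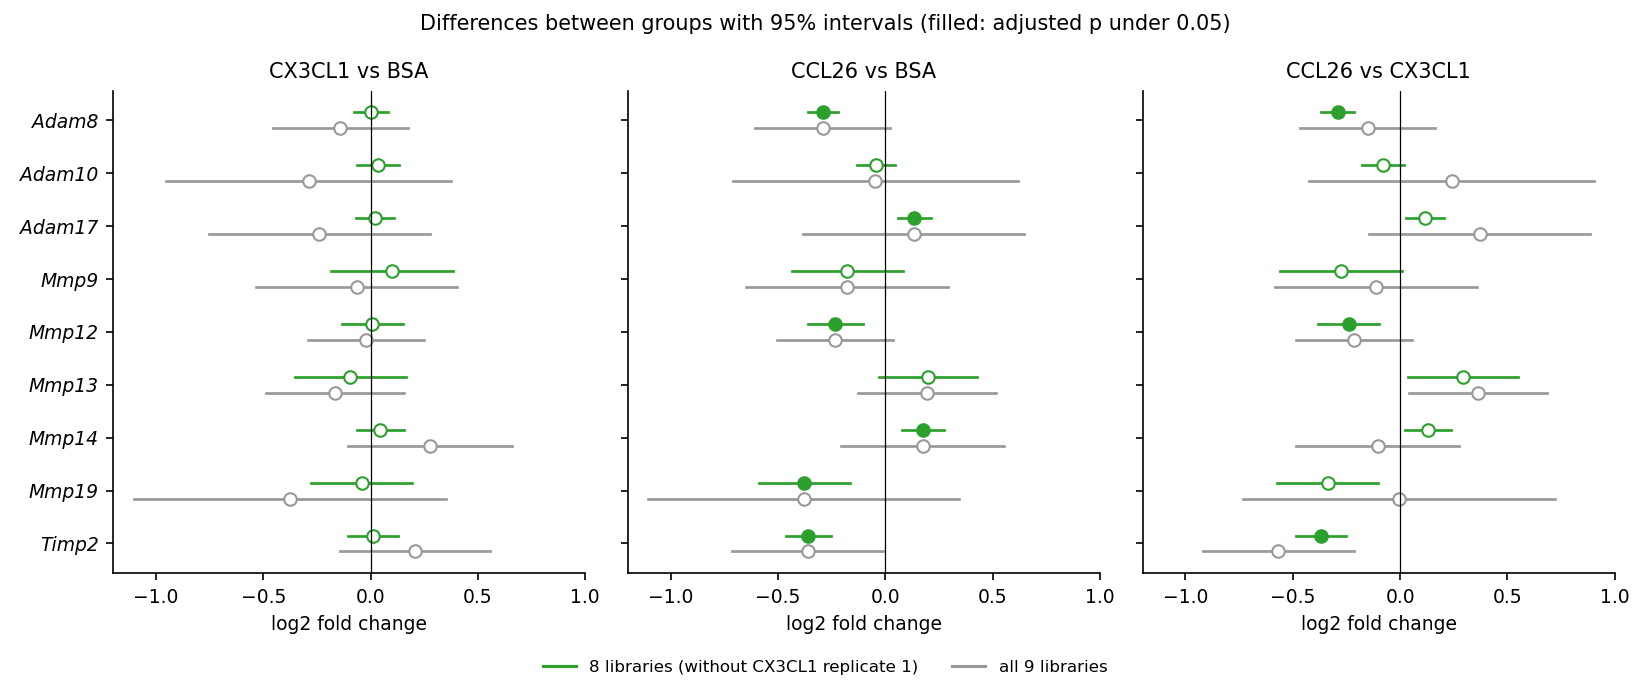
Log2 fold change of each gene in the 3 comparisons, with 95% intervals, from edgeR; green is the fit of 8 libraries without CX3CL1 replicate 1, grey is the fit of all 9, and filled points passed an adjusted p of 0.05. Timp1, which was tested in the 8-library fit only, is not drawn; in the CCL26 against BSA panel both fits give nearly the same values, while the grey intervals are wider for every gene drawn.

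Marker levels that moved alongside are given beside these changes. Of all tested genes, 19% were called with CCL26 against BSA in the 8-library fit and 0.434% with all 9 libraries. In the 8-library fit 9 of the 12 macrophage markers were lower with CCL26, among them Lyz2 at -0.35 and Mrc1 at -0.29 on the log2 scale, while Csf1r was not called (0.04). In the fit of all 9 libraries 0 of the 12 passed and 1 had an unadjusted p under 0.05 (edgeR). Of the 12 tested neutrophil markers 2, S100a8 and S100a9, were higher in the 8-library fit (0.34 and 0.35), close to the share of all genes. In the fit of all 9, 0 neutrophil markers passed and 0 had an unadjusted p under 0.05 (edgeR). Of the remaining lists, Cd79b among the T, NK and B cell markers was lower (-0.36) and Kit among the mast cell markers was higher (1.26, from 1.28 to 3.06 CPM) in the 8-library fit, and 0 fibroblast and 0 osteoclast markers passed, with 0 and 1 at an unadjusted p under 0.05 (edgeR). The part of these markers in the members' changes was not tested.

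CX3CL1 against BSA asks the same of the chemokine that ADAM10 and ADAM17 can release, and no member passed. The count was 0 of 9 tested with all 9 libraries, where 0% of all genes passed, and 0 of 10 without CX3CL1 replicate 1, where 0.332% of genes did; 0 members had an unadjusted p under 0.05 in either fit (edgeR), and DESeq2 also gave 0 on all 9 and on 8 libraries. CX3CL1 replicates 2 and 3 had 879.8 and 901.2 CPM of Adam8, which surround the BSA values, and 169.8 and 179.4 CPM of Timp2, which lie within them. Adam17 was at 553.7 and 565.0 CPM, also within the BSA range. Of the 12 macrophage markers 1, Lyz2, was lower with CX3CL1 in the 8-library fit (-0.0996 on the log2 scale, adjusted p = 0.0146, edgeR). In that fit 5 of the 12 had an unadjusted p under 0.05. With all 9 libraries 0 of the 12 passed and 0 had an unadjusted p under 0.05 (edgeR). No gene of the other marker lists passed in either fit.

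The 95% intervals show what size of change each fit leaves room for, and those of the 8-library fit come first. For Adam8 the interval ran from -0.08 to 0.08 on the log2 scale, for Adam10 from -0.06 to 0.13 and for Adam17 from -0.07 to 0.11. For Mmp14 it ran from -0.06 to 0.15, for Timp2 from -0.11 to 0.13 and for Mmp12 from -0.13 to 0.15. The low-count members had wider intervals, of -0.19 to 0.38 for Mmp9, -0.35 to 0.16 for Mmp13 and -0.28 to 0.19 for Mmp19. In this fit the interval of Adam8 excludes a fall as large as the one measured with CCL26, and so does that of Timp2. With CX3CL1 replicate 1 included, the interval was -0.46 to 0.17 for Adam8, which holds such a fall, and -0.14 to 0.56 for Timp2, which does not. It was -0.95 to 0.38 for Adam10 and -0.75 to 0.28 for Adam17 in that fit.

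CX3CL1 replicate 1 moved several of these log2 fold changes when it was included. In it Adam10 had 107.2 CPM, Adam17 285.6, Adam8 637.1 and Mmp19 11.06, each below all other 8 libraries, as were Mmp9 at 16.03 and Mmp13 at 16.16. Mmp14 at 281.8 CPM, Timp2 at 251.6 and Timp1 with 9 counts (0.596 CPM) were above all others. Mmp12 at 215.8 CPM was the exception. Against the mean of CX3CL1 replicates 2 and 3 the log2 differences were -1.33 for Adam10, -0.97 for Adam17, -1.41 for Mmp19, 0.61 for Mmp14 and 0.53 for Timp2. With this library Adam10 had a log2 fold change of -0.29 against BSA, and without it 0.04.

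CCL26 against CX3CL1 compares the chemokines directly. Without CX3CL1 replicate 1, Adam8, Timp2 and Mmp12 were lower with CCL26, which is 3 of 10 members past the threshold where 10.1% of all genes passed. With all 9 libraries 0 of 9 passed, where 0.41% of genes did; Timp2 and Mmp13 had an unadjusted p under 0.05 there (edgeR), with adjusted values of 0.335 and 0.423, and DESeq2 on all 9 called 0. This comparison uses the CCL26 libraries of the one with BSA, and both chemokine comparisons with BSA use the same BSA libraries, so none is independent of the others. Of the 12 macrophage markers 7 were lower with CCL26 than with CX3CL1 in the 8-library fit, with a median log2 fold change of -0.20 over the 12, and 0 passed with all 9, where 6 had an unadjusted p under 0.05 (edgeR). The part of these markers in the members' differences was not tested.

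Adam8 was 18.3% lower with CCL26 than with CX3CL1 (log2 fold change -0.29 ± 0.0379, SE, adjusted p = 5.11e-06, edgeR, 8 libraries). Timp2 was 22.6% lower (-0.37 ± 0.0563, SE, adjusted p = 5.26e-05), and both calls held in 8 of 8 fits without a further library. CX3CL1 replicate 1 moved both values: with all 9 libraries the log2 fold change was -0.15 for Adam8 (adjusted p = 0.589, edgeR) and -0.57 for Timp2 (adjusted p = 0.335). Mmp12 was 15.3% lower (-0.24 ± 0.0684, SE, adjusted p = 0.0234), a call lost without CX3CL1 replicate 2 or 3 (adjusted p up to 0.177). Its CX3CL1 values of 231.5 and 227.1 CPM in replicates 2 and 3 were above all CCL26 libraries. With all 9 libraries the log2 fold change of Mmp12 was -0.22 (adjusted p = 0.436, edgeR).

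The remaining members missed the threshold. Mmp19 had a log2 difference of -0.34 (95% interval -0.57 to -0.10, adjusted p = 0.0632) and Adam17 one of 0.12 (0.03 to 0.20, adjusted p = 0.0909). Mmp14 had 0.13 (0.02 to 0.24, adjusted p = 0.131) and Mmp13 0.29 (0.04 to 0.55, adjusted p = 0.154). Mmp9 had -0.28 (-0.56 to 0.01, adjusted p = 0.244) and Adam10 -0.08 (-0.18 to 0.02, adjusted p = 0.352), all from edgeR on 8 libraries. Timp1 had 1.08 with an SE of 0.985 (adjusted p = 0.594). With CX3CL1 replicate 1 included, the log2 difference was -0.0055 for Mmp19, 0.37 for Adam17 and -0.11 for Mmp9, and it turned in sign to -0.11 for Mmp14 and to 0.24 for Adam10. The value of Mmp13 was 0.36 in that fit, and none of these passed (edgeR). DESeq2 on the same 8 libraries also called Mmp19, for 4 members in all.

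Among genes for substrates of ADAM10 and ADAM17, Csf1 and Tnf were higher with CCL26 in both fits. Of 41 listed genes for surface proteins known to be shed by either enzyme, 34 were tested. With CCL26 against BSA, 12 were higher and 6 lower in the 8-library fit, and 16 did not pass, where 19% of all tested genes were called in that fit. The median log2 fold change of the list was 0.19, against 0.01 over all genes. Csf1, the growth factor of macrophages, rose from 21.0 ± 3.94 to 56.1 ± 1.60 CPM (SD, n = 3 each), and Tnf from 39.7 ± 1.48 to 75.7 ± 5.56 CPM. In the fit of all 9 libraries, where 2 of the 34 were called, Csf1 had a log2 fold change of 1.41 ± 0.181 (SE, adjusted p = 0.0169, edgeR) and Tnf one of 0.93 ± 0.124 (adjusted p = 0.0205).

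The adhesion molecule Icam1 rose from 157 ± 5.32 to 252 ± 17.5 CPM with CCL26 (0.68 on the log2 scale, adjusted p = 5.74e-10, edgeR, 8 libraries), and Slamf7, a receptor of the SLAM family, from 153 ± 6.72 to 212 ± 7.15 CPM (0.47, adjusted p = 7.55e-08). The other higher genes were Il15ra, Cd40, Notch1, Cxcl16, Il6st, Notch2, Tnfrsf1b and Sorl1, with log2 fold changes from 0.30 to 1.78. The lower genes were Hbegf at -1.15, Trem1 at -0.88, F11r at -0.52, Cd36 at -0.29, Aplp2 at -0.21 and Tnfrsf1a at -0.18; Levels with BSA were low for several of these, at 2.51 CPM for Hbegf and 5.04 for Trem1 among the lower genes and at 1.22 CPM for Il15ra, which has the 1.78, and 4.71 for Cd40 among the higher ones. The receptors of tumour necrosis factor thus took opposite signs, with Tnfrsf1b at 0.30 and Tnfrsf1a at -0.18. The macrophages' own Cx3cl1 transcript was at 0.799 CPM with BSA and did not pass (log2 fold change 0.31, adjusted p = 0.813).

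**Figure D4:**
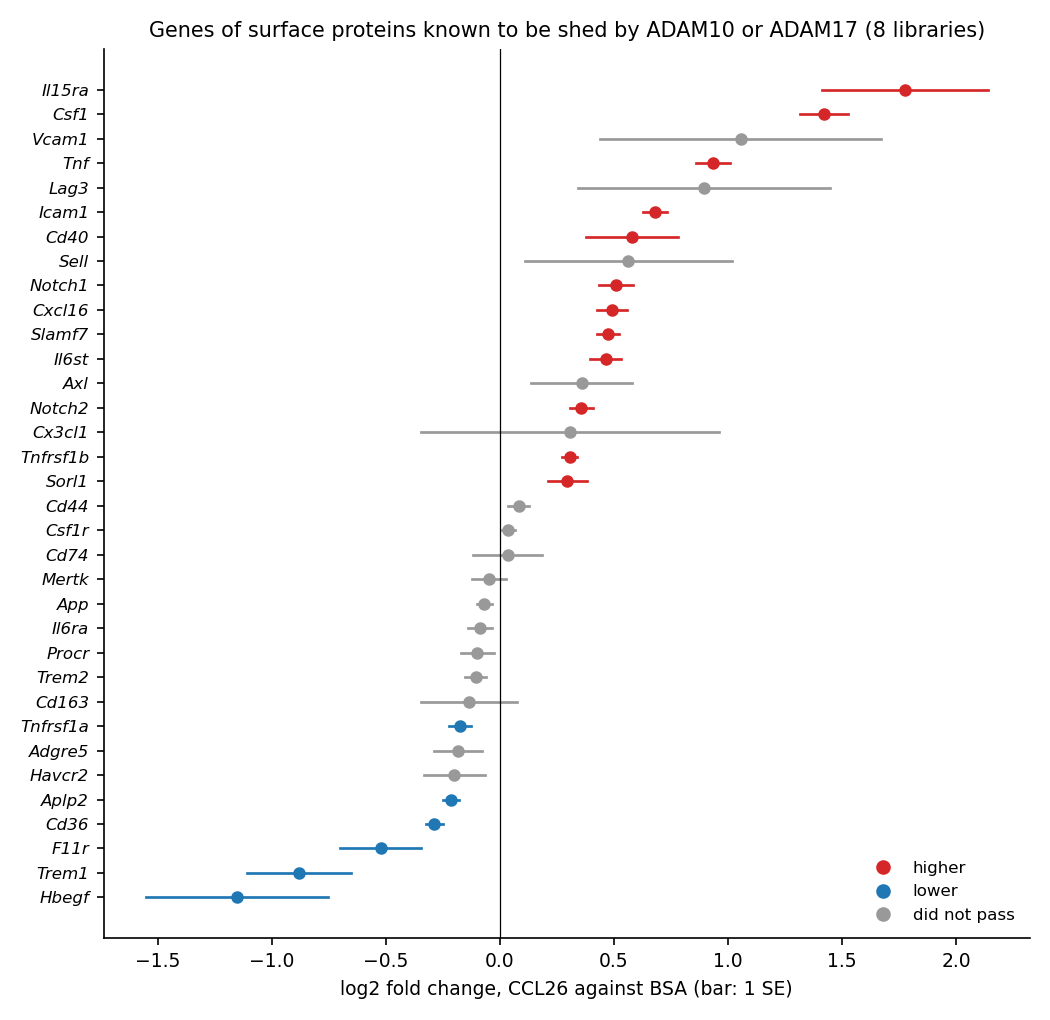
Log2 fold change with CCL26 against BSA, with 1 SE, of the 34 tested genes for surface proteins known to be shed by ADAM10 or ADAM17, from the 8-library fit. Red points were higher and blue points lower at an adjusted p of 0.05; Csf1 and Tnf, the genes that also passed with all 9 libraries, are among the highest.

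Against CX3CL1, 10 of the 34 genes were higher with CCL26 and 3 lower in the 8-library fit, where 10.1% of all genes were called. With all 9 libraries Csf1 (1.38, adjusted p = 0.0140, edgeR) and Tnf (1.02, adjusted p = 0.0101) passed there as well. CX3CL1 against BSA gave 0 of 34 in both fits, with 2 genes at an unadjusted p under 0.05 on all 9 libraries and 6 on 8 (edgeR).

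A further list held partners that carry ADAM10 and ADAM17 to the surface or hold them back. Of 19 listed genes 16 were tested, and 1 was higher and 3 lower with CCL26 against BSA in the 8-library fit, which is close to the 19% of all genes called. The tetraspanin Cd82 was higher (0.36, adjusted p = 0.000136), and the tetraspanins Cd81 (-0.30, adjusted p = 0.000108) and Cd9 (-0.34, adjusted p = 0.00101) and the disulfide isomerase Pdia6 (-0.20, adjusted p = 0.000536) were lower, all from edgeR on 8 libraries. Cd81 went from 192 ± 8.80 to 156 ± 4.97 CPM (SD) and the mean of Cd9 from 126 to 98.7 (n = 3 each). Rhbdf2, the iRhom that brings ADAM17 to the surface of myeloid cells, had 189 CPM with BSA and 205 with CCL26 (0.12, adjusted p = 0.108, edgeR). Against CX3CL1, 2 of the 16 were higher with CCL26 and 3 lower in the 8-library fit, where 10.1% of all genes were called. Rhbdf2 was among the higher ones (0.21, adjusted p = 0.0186, edgeR). With all 9 libraries 0 of the 16 passed against CX3CL1, and 4 had an unadjusted p under 0.05 (edgeR). On all 9 libraries 0 of the 16 passed against BSA, and 2 had an unadjusted p under 0.05.

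Of 18 listed genes for other inhibitors and activators 10 were tested. In the 8-library fit 1 was higher and 3 lower with CCL26 against BSA, where 19% of all genes were called. Among the lower genes were Bsg and Furin. Bsg, a membrane glycoprotein that induces metalloproteases, went from 236 ± 4.03 to 206 ± 5.43 CPM (SD, n = 3 each), a log2 fold change of -0.20 ± 0.0449 (SE, adjusted p = 0.00226, edgeR). The proprotein convertase Furin was lower by a smaller amount (-0.15, adjusted p = 0.0399, edgeR), and the clearance receptor Lrp1 was higher (0.11, adjusted p = 0.0293, edgeR). On all 9 libraries 0 of 10 passed and 1 had an unadjusted p under 0.05 (edgeR).

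The rest of the metalloprotease family and the secretases that act after shedding were compared in the same way. Of all tested genes, 19% were called with CCL26 against BSA in the 8-library fit and 0.434% with all 9. Of 38 other metalloproteases 18 were in the table, and 1 of these, Adam15, was lower with CCL26 against BSA in the 8-library fit (-0.13, adjusted p = 0.0467, edgeR); with all 9 libraries 0 of 16 passed and 1 had an unadjusted p under 0.05. Several of these metalloproteases had very low levels with BSA, such as Mmp17 at 0.558 CPM and Adamts7 at 0.194. Their SEs in the 8-library fit were 0.845 and 1.07, so the lack of a call says little there. The beta- and gamma-secretase genes gave 0 of 8 in both fits, with 2 at an unadjusted p under 0.05 on 8 libraries and 0 on 9 (edgeR). With CX3CL1 against BSA, 0 genes of the lists of substrates, partners, inhibitors and activators, other metalloproteases and secretases passed in either fit (edgeR). At most 2 genes of such a list, other than that of the substrates, had an unadjusted p under 0.05.

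Among the members with at least 10 CPM, Mmp19 and Mmp9 varied most over the 8 libraries, with an SD of 0.22 and 0.21 on the log2 scale. Of 7935 genes compared, the patterns nearest to that of Mmp19, by the root mean square difference of centred log2 CPM, were Atp5mpl (0.040), Gdap2 (0.0683) and Eif1b (0.0712). Those nearest to Mmp9 were Btd (0.0724), Tacc2 (0.0795) and Mmp8 (0.0834), the last being the neutrophil collagenase, which had 29.7 ± 0.730 CPM with BSA and 25.7 ± 3.02 with CCL26 (SD, n = 3 each). CX3CL1 replicate 1 was not used in this ranking and split both sets. Mmp19 was low there at 11.06 CPM, and Atp5mpl was high at 124 CPM. Mmp9 was low there at 16.03 CPM and Mmp8 at 15.6 CPM. Btd at 19.7 and Tacc2 at 23.1 CPM were above their means over the 8 libraries, of 18.0 and 18.3 CPM.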

How the data were processed

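The authors deposited 1 table of raw counts per gene for the 9 libraries, as whole numbers. STAR, featureCounts, MultiQC, GRCm38 and mm10 appear in the submitters' processing notes without version or order, and the sources used here do not say if counting used strand. Columns were matched to libraries by the code in the labels. Chi-square per degree of freedom between libraries of a group was 284 and 336 for pairs with CX3CL1 replicate 1 and 3.91 to 8.65 for the other 7 pairs, so none counted as a duplicate.

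Counts were tested with edgeR 4.0.16 (quasi-likelihood, TMM, filterByExpr, R 4.3.3) with group as the only term and Benjamini-Hochberg adjustment over all tested genes, 12915 with all 9 libraries and 13245 without CX3CL1 replicate 1. The SE is the log2 fold change over the root of F. Exon lengths and positions are from GENCODE M21 on GRCm38. The scripts were tested on simulated counts. Alternatives were DESeq2 1.42.0, limma 3.58.1 voom with quality weights, other scalings and filters, a replicate block, and leaving out libraries; robust dispersion, and no filter on 8 libraries, were added after seeing the data.

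Members, gene lists, tests and the use of the 8-library fit were chosen with earlier results of these data known. Named genes are the members, up to 4 genes per pathway list with the smallest p among 8-library calls of CCL26 against BSA, any list gene called with all 9 libraries, and the 3 genes most alike to each of the 2 most variable members; other genes were named after their values were seen, and 1 gene that the rule takes is not reported here. Plots used Python 3.11.15 with matplotlib 3.10.9.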

Additional observations from a re-analysis of the deposited data

How the results depend on the processing

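All counts of members past the threshold were 0 in the 3 comparisons with all 9 libraries, also under DESeq2, DESeq2 size factors, upper quartile scaling, either filter, robust dispersion (added after seeing the data) and a replicate block, which is 7 of 8 settings on all 9 libraries. limma-voom with library quality weights was the eighth and gave 6 for CCL26 against BSA and 3 for CCL26 against CX3CL1. The 6 libraries of a comparison alone gave 6 for CCL26 against BSA and 0 for the other comparisons. On the 8 libraries without CX3CL1 replicate 1, DESeq2, a replicate block, DESeq2 size factors and no filter (added) each gave 6 for CCL26 against BSA, and for CCL26 against CX3CL1 they gave 4, 3, 3 and 3. Leaving out 1 library, alone or besides CX3CL1 replicate 1, gave 0 to 6 for CCL26 against BSA, 0 to 4 for CCL26 against CX3CL1 and 0 throughout for CX3CL1 against BSA; of single libraries, only the absence of CX3CL1 replicate 1 gave any. The 6 were the same genes in each setting that called 6. Where leaving out libraries kept only 1 of CX3CL1, that library was assumed to vary like those of the other groups. The cause was not tested.

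Same-numbered libraries of different groups did not deviate together: the 9 correlations ran from -0.0782 to 0.0511, and 3 of 9 libraries correlated best with their own number, so the numbers were not used as pairs and the replicate block changed no count of calls on all 9 libraries.

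No log2 fold change of CCL26 against BSA changed sign under any setting that gave a value. Signs turned, against the values with all 9 libraries, in 73 cases for CX3CL1 against BSA and 33 for CCL26 against CX3CL1, none of them a call with all 9 libraries. For CX3CL1 against BSA, voom weights gave 0.0270 for Adam10, 0.0110 for Adam17, 0.0941 for Mmp9 and 0.0075 for Mmp12, where upper quartile scaling gave 0.0081 and the 5 CPM filter 0.0022. On 8 libraries, in the order DESeq2, replicate block, size factors and no filter, the values were 0.0012, 0.0043, 0.0011 and 0.0027 for Adam8, 0.0353, 0.0314, 0.0351 and 0.0366 for Adam10, 0.0181, 0.0193, 0.0180 and 0.0195 for Adam17, 0.0995, 0.0750, 0.0985 and 0.09999 for Mmp9, and 0.0069, 0.0583, 0.0067 and 0.0082 for Mmp12; Timp2 turned to -0.0181 with the block. For CCL26 against CX3CL1 they were -0.0837, -0.0744, -0.0836 and -0.0799 for Adam10 (voom -0.0665) and 0.1260, 0.1113, 0.1262 and 0.1299 for Mmp14 (voom 0.1198), and Mmp19 turned to 0.0850 with the block on all 9.

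With 1 library left out, alone or besides CX3CL1 replicate 1, the log2 fold changes of these members ran, for CX3CL1 against BSA, from -0.23 to 0.0196 for Adam8, -0.50 to 0.0632 for Adam10, -0.40 to 0.0392 for Adam17, -0.21 to 0.18 for Mmp9, -0.0697 to 0.0361 for Mmp12, -0.60 to 0.0454 for Mmp19 and -0.0311 to 0.31 for Timp2. For CCL26 against CX3CL1 they ran from -0.10 to 0.45 for Adam10, -0.45 to 0.0281 for Mmp9, -0.21 to 0.15 for Mmp14 and -0.39 to 0.22 for Mmp19.

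Depth limits Timp1 most, at no more than 11 counts in a library, and in the 8-library fit the intervals of Mmp9, Mmp13 and Mmp19 are wider than those of the other members apart from Timp1.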

Other observations

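MMP14 and TIMP2 act together in the activation of MMP2, and their transcripts took opposite signs with CCL26 in the 8-library fit. The Mmp2 transcript itself was low, at 4.29 CPM with BSA and 3.27 with CCL26 (log2 fold change -0.39, adjusted p = 0.274, edgeR, 8 libraries). The ratio of Mmp14 to Timp2, each per kilobase of exon, was 0.732, 0.672 and 0.622 in BSA replicates 1 to 3 and 1.02, 0.945 and 0.964 with CCL26. In CX3CL1 replicates 1 to 3 it was 0.732, 0.699 and 0.684. The CCL26 libraries lay above all others in this ratio, and CX3CL1 replicate 1, in which both genes were far above the other libraries, had a ratio equal to the highest BSA value. The ratio was chosen after the values were seen and was not tested.

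The ratio of Adam17 to Adam10 per kilobase was 1.47, 1.496 and 1.37 with BSA, 1.62, 1.70 and 1.59 with CCL26 and 1.44 and 1.42 in CX3CL1 replicates 2 and 3. It was 1.83 in CX3CL1 replicate 1, the highest of the 9. This ratio, too, was chosen after the values were seen and was not tested.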
